A study of Mus musculus with 2 samples.

Results

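Imprinted growth genes are described here across mouse embryonic fibroblasts and the muscle progenitor culture made from such fibroblasts. The members were chosen by name, as 10 well known imprinted regulators of growth, with earlier results of these data known. Counts of members, and of the gene lists chosen in the same way, are therefore only described beside the shares of all genes. Of the 10 members, 8 had a row among the 26100 genes listed in both count matrices: Igf2, Dlk1, Peg3, Mest, Cdkn1c, Ndn, Plagl1 and Grb10. H19 and Meg3 are not analysed here. The study asked which cell types and differentiation paths a stable clone of induced myogenic progenitor cells (iMPCs) contains. The iMPC library came from embryonic fibroblasts converted with MyoD, a master regulator of muscle genes, together with a treatment that the labels call F/R/C, and kept in medium that contained F/R/C. The MEF library came from fibroblasts kept in fibroblast medium. Both carried the genotype Tg:Pax7-nGFP/C57BL6;DBA2, a green nuclear reporter of the satellite cell gene Pax7. Each group was 1 library, and the iMPC culture is described as a clone, so medium, conversion, clone and library cannot be told apart. No test was made, and every interval below is an exact 95% interval that covers counting error only.

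An imprinted gene is transcribed mainly from the allele of a single parent, chosen by DNA methylation that differs between egg and sperm. Genes expressed from the father's allele tend to promote fetal growth and those from the mother's allele tend to restrain it. Igf2, Dlk1, Peg3, Mest, Ndn and Plagl1 are expressed from the paternal allele, and Cdkn1c and, in most tissues, Grb10 from the maternal allele. Several of these genes are active in fetal and regenerating muscle and decline after birth. The counts do not separate the alleles, so they report the level of a gene and nothing about its imprint.

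Cells were grouped by counts of unique molecular identifiers (UMIs, each standing for 1 captured RNA molecule). After filtering, the MEF library held 6043 cells with a median of 18929 UMIs and the iMPC library 9349 cells with a median of 20846. In iMPC, the Pax7 class (at least 1 Pax7 UMI and no Myog) held 2180 cells and the Myog class (at least 5 Myog and at most 1 Ckm) held 1724. The Ckm class (at least 5 Ckm) held 1037 cells and the Dcn class (at least 5 of the fibroblast gene Dcn) 553. A further 4001 iMPC cells (42.8%) met no class rule. The class medians ran from 18064 UMIs in the Dcn class to 42148 in the Ckm class, so levels are given as CPM, a gene's UMIs relative to all UMIs of the group, and shares of cells after thinning each cell to 5000 UMIs. The 284 MEF cells under that depth were left out of the shares. Barcodes common to the kept cells of both libraries numbered 16, or 0.265% of the MEF cells.

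The class labels were set beside marker lists. These lists include the class genes Pax7, Myog and Ckm, so each of those classes is high in its own list partly by selection. Dcn is not in the fibroblast list. Summed over 10 fibroblast markers, the level was 6585 CPM in MEF, 4782 in the Dcn class, 1850 in the Pax7 class, 485 in the Myog class and 257 in the Ckm class, and all 10 reached 10 CPM in both MEF and the Dcn class. The 6 myocyte markers summed to 24239 CPM in the Ckm class, 7276 in the Myog class, 2289 in the Dcn class, 490 in the Pax7 class and 93.5 in MEF. The 4 markers of committed myoblasts summed to 2192 CPM in the Myog class, 1913 in the Ckm class and 273 in the Dcn class. Their sum was lower still in the Pax7 class, and in MEF it was 0.161 CPM. The 8 satellite cell markers summed to 785 CPM in the Pax7 class, 431 in the Myog class and 342 in the Dcn class. They summed to 288 CPM in the Ckm class and 68.3 in MEF, where 3 of them were at 0. Smooth muscle and pericyte markers summed to 6284 CPM in MEF and 990 to 3277 CPM in the iMPC classes. Across MEF and the 4 classes, endothelial markers summed to at most 0.575 CPM, immune to 3.49, epithelial to 14.6, glial to 1.99, adipocyte to 19.4, chondrocyte to 78.4 and neuronal to 249. The Dcn class overlapped with the others: 110 of its cells also met the Pax7 rule, 18 the Myog rule and 18 the Ckm rule. The 36 Dcn cells that were also in the Myog or Ckm class (6.51% of it, median 42213 UMIs) held 73.7% of its Cdkn1c UMIs, 57.6% of its Dlk1 and 45.6% of its Mest. Values of the Dcn class are accordingly also given for its 407 cells of that class alone.

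The upstream sequences of 4 members are shown because these genes had contrasting patterns below: Mest and Dlk1 ran in opposite directions from progenitors to Ckm-expressing cells, Igf2 was nearly absent from MEF, and Grb10 differed less between MEF and the myogenic classes. Each is the 250 bases before an annotated start from the RefSeq table (GRCm38.p6), 5′ to 3′ on the gene's strand, with CG dinucleotides, the sites of DNA methylation, in capitals. Where a gene had several starts, the window with the fewest annotated exon bases and then the most CG was taken, and 3′ counts do not show which start was used. Mest lies at chr6:30737800-30738049 (plus strand), Dlk1 at chr12:109452573-109452822 (plus), Grb10 at chr11:12037421-12037670 (minus) and Igf2 at chr7:142657497-142657746 (minus).
Mest: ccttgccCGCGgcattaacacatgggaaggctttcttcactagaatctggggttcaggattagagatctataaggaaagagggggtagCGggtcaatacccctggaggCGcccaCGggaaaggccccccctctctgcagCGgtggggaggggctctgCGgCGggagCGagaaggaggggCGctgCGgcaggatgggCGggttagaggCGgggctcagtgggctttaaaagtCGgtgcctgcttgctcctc
Dlk1: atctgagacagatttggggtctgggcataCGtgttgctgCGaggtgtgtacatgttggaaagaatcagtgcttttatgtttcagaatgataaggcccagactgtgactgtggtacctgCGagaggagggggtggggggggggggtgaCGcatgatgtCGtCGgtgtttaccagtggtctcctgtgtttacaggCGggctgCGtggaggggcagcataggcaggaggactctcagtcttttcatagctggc
Grb10: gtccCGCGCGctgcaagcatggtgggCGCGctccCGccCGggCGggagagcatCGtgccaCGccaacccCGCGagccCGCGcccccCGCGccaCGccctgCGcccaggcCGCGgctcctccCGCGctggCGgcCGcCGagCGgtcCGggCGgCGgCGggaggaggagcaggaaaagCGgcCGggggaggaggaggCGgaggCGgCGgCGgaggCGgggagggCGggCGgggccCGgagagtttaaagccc
Igf2: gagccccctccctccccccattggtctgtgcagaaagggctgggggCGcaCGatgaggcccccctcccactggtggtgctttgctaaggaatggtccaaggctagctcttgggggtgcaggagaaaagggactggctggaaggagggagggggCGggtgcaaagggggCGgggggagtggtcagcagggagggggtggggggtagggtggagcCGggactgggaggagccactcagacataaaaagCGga
Since CG content helped to choose the window, its rank is a description of that window only. The Grb10 window held 40 CG dinucleotides, a number that 1.31% of the table's 32851 windows reach, while that of its other start held 8 (43.0%). The Mest window held 14 (29.4% of windows have at least as many), the Dlk1 window 8 (43.0%) and the Igf2 window 6 (50.4%), against a median of 6. The letters CAGCTG, an E-box core that MyoD and myogenin can bind and which reads the same on both strands, were in none of the 4 windows and in 13% of all windows. They were in the window of another annotated Mest start, chr6:30733256-30733505, which is not printed. No match says only that these letters are not in this window.

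Mest also carries a microRNA in an intron, on its own strand at chr6:30741314-30741336 and chr6:30741354-30741375 (GRCm38.p6). Its mature forms, from RefSeq with the seed (bases 2 to 8) in capitals, are shown because Mest, their host gene, differed widely between the myogenic classes. These counts do not measure them.
mmu-miR-335-5p: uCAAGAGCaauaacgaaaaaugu
mmu-miR-335-3p: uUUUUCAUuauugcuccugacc

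In the culture as a whole, 6 of the 8 members were at least 2-fold higher in iMPC than in MEF and 1, Ndn, was at least 2-fold lower. Among the 8605 genes with at least 10 CPM in either library, 14.8% were 2-fold higher, 21.5% were 2-fold lower and 36.3% passed in either direction. The members' median log2 ratio was 2.64, against -0.17 for all genes. Igf2 led with a log2 ratio of 6.34, followed by Mest at 3.06, Cdkn1c at 3.05, Plagl1 at 2.66, Dlk1 at 2.62 and Peg3 at 1.74. With cells thinned to 5000 UMIs, the ratio of Dlk1 was 1.81, and that of the Myog class over MEF 1.90 in place of 2.60. Grb10 stood at 0.61 and Ndn at -1.29. Igf2 reached 10 CPM only through iMPC, so its ratio had to be large once it was counted.

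Split by class, the members followed different courses. Mest and Plagl1 were highest in the Pax7 class, Cdkn1c in the Myog class, Dlk1 and Igf2 in the Ckm class, and Ndn in MEF. Peg3 and Grb10 stayed within a narrow range over the 3 myogenic classes. The plot of levels by cell group shows these courses.

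**Figure D1:**
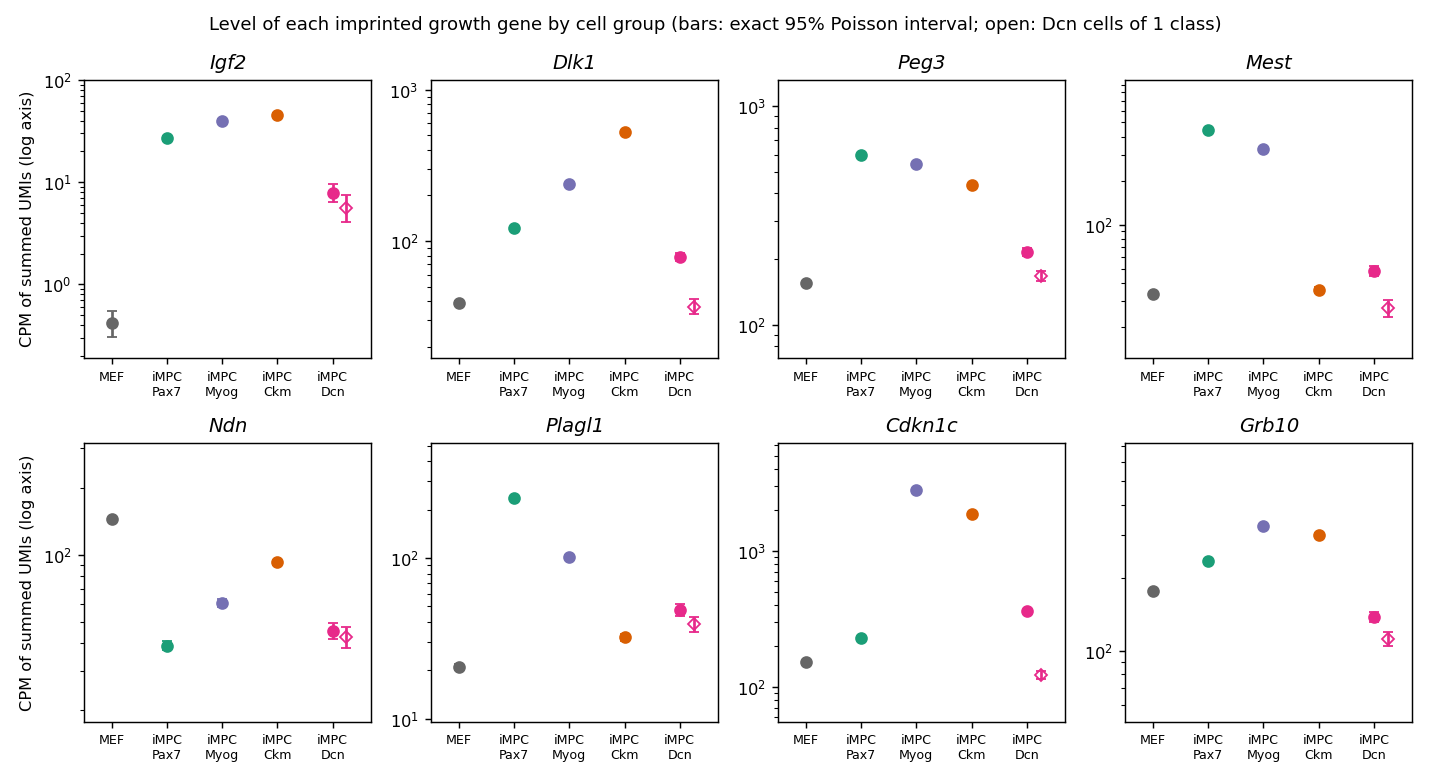
Level of each member in CPM (log axis) in MEF and the 4 iMPC classes; bars are exact 95% Poisson intervals, often smaller than the point, and open diamonds are the 407 Dcn cells of no other class. Cdkn1c peaks in the Myog class (2809 CPM), Dlk1 in the Ckm class (528 CPM), and Mest drops from 444 CPM in the Pax7 class to 36.1 CPM in the Ckm class.

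Igf2 (ENSMUSG00000048583, chromosome 7, 142650766 to 142666816, minus strand, GENCODE M21 on GRCm38) encodes insulin-like growth factor 2, a fetal growth factor that myoblasts also secrete during differentiation. It had 49 UMIs in all MEF cells, or 0.415 CPM (0.307 to 0.549). In iMPC it stood at 26.9 CPM in the Pax7 class (25.3 to 28.4), 39.6 in the Myog class (37.8 to 41.5), 45.5 in the Ckm class (43.7 to 47.5) and 7.80 in the Dcn class (6.31 to 9.54). The 3 myogenic classes differed from each other by more than their counting intervals, with the Ckm class highest. Igf2 was nevertheless found in few cells: at 5000 UMIs, 0.156% of MEF cells held a UMI, 11.8% of the Pax7 class, 18.7% of the Myog class, 21.8% of the Ckm class and 3.25% of the Dcn class. Free RNA at the level measured in the iMPC library would give 0.664%. Without thinning, the shares were 38.4% in the Pax7 class and 81.6% in the Ckm class, so most cells of the deeper class held at least 1 molecule. No cell held more than 4 Igf2 UMIs at 5000. In the 407 Dcn cells of no other class Igf2 stood at 5.56 CPM (4.05 to 7.44).

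The level of Igf2 carries an uncertainty of annotation. Of the 3287 bases of its last exon, where 3′ reads fall, 3284 (99.9%) are shared with Gm49394, a gene model on the same strand that both matrices also list. Reads that match both models can be left uncounted, and Gm49394 itself had 17 UMIs in iMPC and 0 in MEF. How many Igf2 reads were lost was not tested.

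Dlk1 (ENSMUSG00000040856, chromosome 12, 109452823 to 109463336, plus strand) encodes a membrane protein with EGF-like repeats that resembles the Notch ligand Delta and is known for restraining fat cell differentiation and for its activity in fetal muscle. It stood at 39.1 CPM in MEF (38.0 to 40.3), 121 in the Pax7 class (118 to 124), 237 in the Myog class (232 to 241), 528 in the Ckm class (522 to 535) and 78.1 in the Dcn class (73.2 to 83.2). Each step from MEF to the Pax7, Myog and Ckm classes was larger than the counting intervals, which leave out how unevenly cells held the gene. In the 407 cells of the Dcn class alone it was 36.9 CPM (32.9 to 41.4), an interval that holds the MEF level. At 5000 UMIs the share of cells with Dlk1 was 10.1% in MEF, 31.8% in the Pax7 class, 32.5% in the Myog class, 63.5% in the Ckm class and 12.7% in the Dcn class, with 2.36% from free RNA alone. The Pax7 and Myog classes thus had intervals of the share that overlap (29.8 to 33.8% and 30.3 to 34.8%), while the CPM was 1.95-fold apart. In the Myog class the mean was 0.947 UMIs per cell at 5000 and in the Pax7 class 0.615, so the cells that had Dlk1 held more of it. In MEF, 4.22% of cells held 2 or more UMIs and the highest held 31, more than any cell of a myogenic class.

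Mest (ENSMUSG00000051855, chromosome 6, 30723547 to 30748465, plus strand), also called Peg1, encodes a membrane protein of the hydrolase fold that is widely expressed in fetal mesoderm. It stood at 33.9 CPM in MEF (32.8 to 34.9), 444 in the Pax7 class (438 to 450), 329 in the Myog class (324 to 335), 36.1 in the Ckm class (34.4 to 37.8) and 48.3 in the Dcn class (44.5 to 52.4). The Ckm class was near the MEF level, with a log2 ratio of 0.09 (0.01 to 0.17). The share of cells at 5000 UMIs was 61.5% in the Pax7 class and 58.2% in the Myog class, against 12.0% in the Ckm class, 12.4% in MEF, 9.58% in the Dcn class and 1.62% from free RNA. In the Dcn cells of no other class Mest stood at 26.9 CPM (23.5 to 30.7), below MEF. Mest overlaps Copg2, which lies on the other strand and had a log2 ratio of 0.41 between iMPC and MEF.

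Plagl1 (ENSMUSG00000019817, chromosome 10, 13060504 to 13131694, plus strand), or Zac1, encodes a zinc finger transcription factor that can arrest the cell cycle. It followed Mest in order, with 236 CPM in the Pax7 class (231 to 241), 101 in the Myog class (98.6 to 104), 32.1 in the Ckm class (30.6 to 33.8), 47.4 in the Dcn class (43.6 to 51.4) and 21.0 in MEF (20.2 to 21.9). Cells with a UMI at 5000 made up 56.7% of the Pax7 class, 37.6% of the Myog class and 12.1% of the Ckm class. The shares were 14.5% in the Dcn class and 9.08% in MEF, with 0.657% from free RNA. In the 407 Dcn cells of no other class Plagl1 stood at 38.5 CPM (34.4 to 43.0).

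Peg3 (ENSMUSG00000002265, chromosome 7, 6703892 to 6730431, minus strand), another zinc finger protein, is known for marking muscle progenitors and other adult stem cells. It stood at 155 CPM in MEF (153 to 157), 602 in the Pax7 class (594 to 609), 545 in the Myog class (539 to 552), 437 in the Ckm class (431 to 443) and 216 in the Dcn class (208 to 225). Its share of cells at 5000 UMIs was 84.6% in the Pax7 class, 86.5% in the Myog class and 84.8% in the Ckm class, with overlapping intervals, against 44.1% in MEF and 44.5% in the Dcn class and 2.55% from free RNA. Peg3 was thus found in a like share of cells across the myogenic classes. Its level was 1.38-fold lower in the Ckm than in the Pax7 class. In the 407 Dcn cells of no other class Peg3 stood at 168 CPM (159 to 177). The log2 ratio of the Dcn class over MEF was then 0.12 in place of 0.48.

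Ndn (ENSMUSG00000033585, chromosome 7, 62346569 to 62350262, plus strand) encodes necdin, a protein of the MAGE family that binds E2F factors and restrains proliferation in neurons and muscle cells. It was the only member with its highest level in MEF, at 144 CPM (142 to 146). In iMPC it stood at 39.1 CPM in the Pax7 class (37.2 to 41.0), 60.7 in the Myog class (58.4 to 62.9), 92.4 in the Ckm class (89.7 to 95.1) and 45.5 in the Dcn class (41.8 to 49.5). At 5000 UMIs, 49.3% of MEF cells had Ndn, against 16.1% of the Pax7 class, 19.4% of the Myog class, 26.5% of the Ckm class and 18.4% of the Dcn class, with 0.560% from free RNA. Ndn separated the Dcn class from MEF as well: the log2 ratio was -1.66 (-1.79 to -1.54), and -1.76 without cells of other classes.

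**Figure D2:**
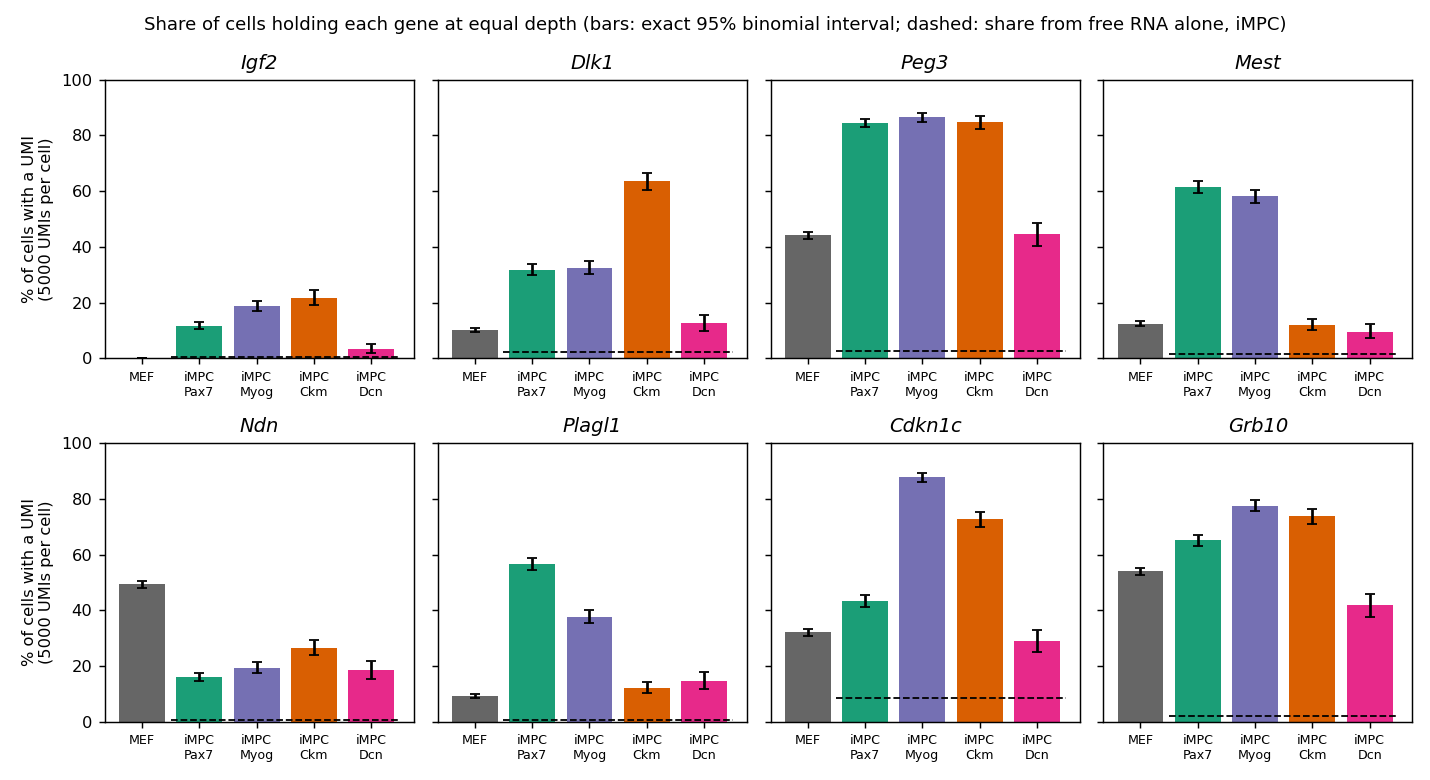
Share of cells (%) with at least 1 UMI of each member after thinning every cell to 5000 UMIs; bars carry exact 95% binomial intervals and the dashed line is the share free RNA of the iMPC library would give alone. Mest and Plagl1 were found in 61.5% and 56.7% of the Pax7 class, Cdkn1c in 87.7% of the Myog class and Ndn in 49.3% of MEF cells.

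Cdkn1c (ENSMUSG00000037664, chromosome 7, 143458339 to 143461050, minus strand) encodes p57Kip2, an inhibitor of cyclin-dependent kinases that is known for holding differentiating muscle cells out of the cell cycle. It stood at 152 CPM in MEF (150 to 154), 229 in the Pax7 class (224 to 233), 2809 in the Myog class (2793 to 2824), 1863 in the Ckm class (1851 to 1875) and 358 in the Dcn class (348 to 369). Without the cells that met another class rule, the Dcn class stood at 122 CPM (115 to 130), below MEF. Cells with a UMI at 5000 made up 87.7% of the Myog class, 72.7% of the Ckm class, 43.2% of the Pax7 class, 32.1% of MEF and 28.9% of the Dcn class, and free RNA alone would give 8.41%. A median Myog-class cell held 11 Cdkn1c UMIs at 5000 and a median Pax7-class cell 0, while the highest Pax7-class cell held 35. The top 10% of cells held 59.3% of the Cdkn1c UMIs in the Pax7 class and 30.7% in the Myog class.

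Grb10 (ENSMUSG00000020176, chromosome 11, 11930508 to 12038683, minus strand) encodes an adaptor that binds the insulin and IGF1 receptors and dampens their signal. It stood at 176 CPM in MEF (173 to 178), 235 in the Pax7 class (231 to 240), 326 in the Myog class (321 to 331), 299.5 in the Ckm class (295 to 304) and 137 in the Dcn class (131 to 144). The share of cells at 5000 UMIs ran from 41.8% in the Dcn class and 54.1% in MEF to 65.0% in the Pax7 class, 73.9% in the Ckm class and 77.5% in the Myog class, against 2.13% from free RNA. The Myog and Dcn classes were the highest and the lowest, and in the Dcn cells of no other class Grb10 stood at 112 CPM (105 to 120). Over MEF, Grb10 was within 2-fold in each class, with log2 ratios from -0.36 in the Dcn class to 0.89 in the Myog class. Another scaling set to 0 the median of a wider set of genes well counted on both sides (13067 and 12828 genes). Under it the Myog class (1.07) and the Ckm class (1.31) passed that line.

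The comparisons of the classes with MEF share the MEF cells, and those with the Pax7 class share its cells, so their values are given side by side. Between the Pax7 class and MEF, 5 of 8 members were at least 2-fold higher (14.8% of 8557 genes) and Ndn was lower at -1.88 (19.4% of genes), while Cdkn1c (0.59) and Grb10 (0.42) were within 2-fold. Of all genes, 34.2% passed in that comparison. The Myog class over MEF had 6 members higher (15.9% of 8574 genes) and 1 lower (26.9%; 42.9% in either direction), with Cdkn1c at 4.21. The Ckm class over MEF had 4 higher (13.9% of 8424 genes) and 0 lower (35.2%; 49.1% in either direction), with Dlk1 at 3.75, Cdkn1c at 3.62 and Igf2 at 6.78. In each of these comparisons Igf2 reached 10 CPM only through the iMPC class, so it had to be among the higher members.

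Within iMPC the members went both ways. Between the Myog and the Pax7 class 2 of 8 members passed, near the 18.6% of 7932 genes: Cdkn1c was higher at 3.62 (3.59 to 3.65; 7.02% of genes passed upward) and Plagl1 lower at -1.22 (-1.27 to -1.17; 11.5% downward). Dlk1 stood at 0.97, and over 11 settings of the processing it passed the line in 2. Its values ran from 0.57, averaging CPM cell by cell, to 1.18, with the median of 13352 genes well counted on both sides set to 0. Between the Ckm and the Pax7 class, Cdkn1c at 3.03, Dlk1 at 2.12 and Ndn at 1.24 were higher (12.2% of 8115 genes) and Mest at -3.62 and Plagl1 at -2.88 were lower (30.2%), 5 of 8 where 42.4% of genes passed. The median log2 ratio used for that scaling was -0.54 in this comparison, -0.21 in the Myog over Pax7 comparison and -0.18 in iMPC over MEF. Under it Igf2 moved from 0.76 to 1.30 in the Ckm class. The sign of Peg3, at -0.46 here and -0.14 in the Myog class, turned under that scaling. The smaller set of genes with at least 10 CPM had medians of -0.46 and -0.14, so Peg3 lay near the median of that set. Between the Ckm and the Myog class, Dlk1 was higher at 1.16 (6.53% of 7332 genes), and Mest at -3.19 and Plagl1 at -1.66 were lower (13.8%), 3 of 8 where 20.4% of genes passed. Only 0.286% of the genes in that comparison lay below Mest. Cdkn1c stood at -0.59 there, and at -1.24 under stricter class thresholds.

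**Figure D3:**
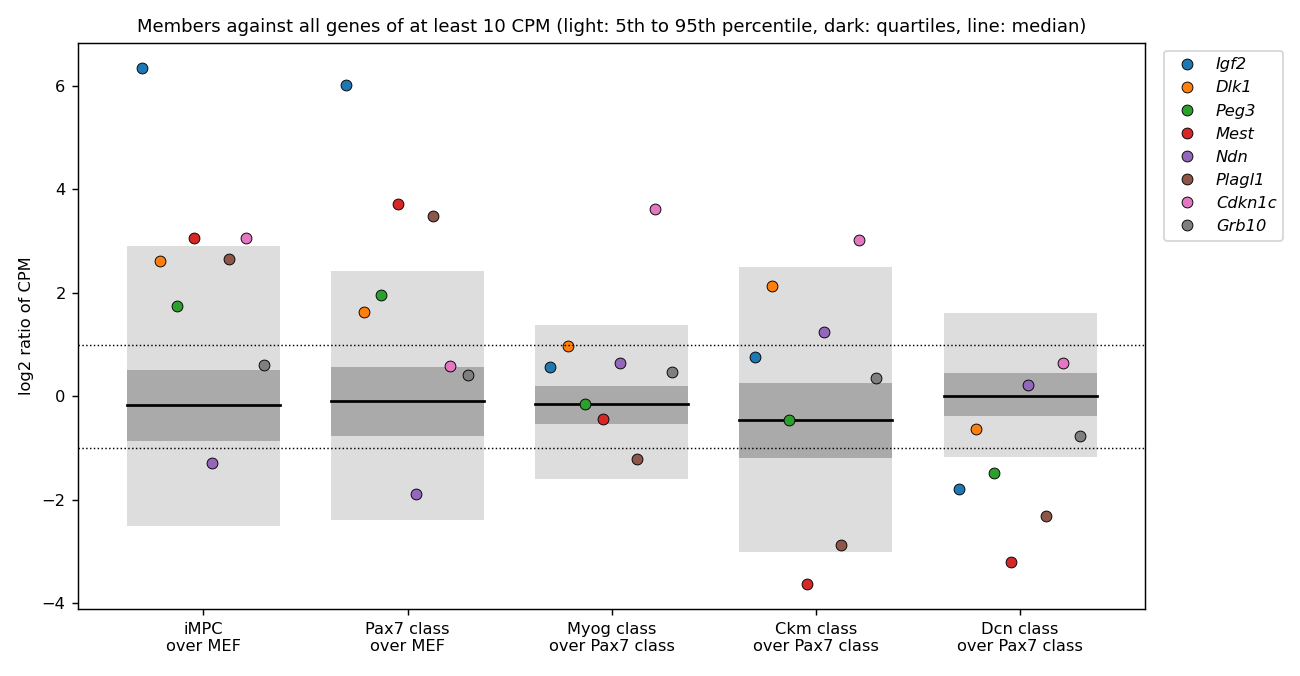
Log2 ratio of CPM for each member (points) in 5 comparisons, over the spread of all genes with at least 10 CPM on either side (light band 5th to 95th percentile, dark band quartiles, line median; dotted lines mark 2-fold). Mest and Plagl1 lie at -3.62 and -2.88 in the Ckm over Pax7 comparison and Cdkn1c at 3.62 in the Myog over Pax7 comparison.

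The Dcn class, the iMPC cells with fibroblast markers, differed from MEF mainly in Ndn and Igf2. Against MEF, 2 of the 7 members that reached 10 CPM were 2-fold higher (13% of 8525 genes) and Ndn was lower (12.9%), where 25.9% of genes passed in either direction. The 2 higher members were Cdkn1c at 1.24 (1.19 to 1.29) and Plagl1 at 1.17 (1.04 to 1.30). Neither passed without cells of other classes, when Cdkn1c stood at -0.31 and Plagl1 at 0.87. Igf2, at 7.80 CPM, was below the level required but had 95 UMIs and a log2 ratio of 4.23 (3.72 to 4.76), or 3.74 without those cells. Against the Pax7 class, 4 members were 2-fold lower (6.77% of 8196 genes) and 0 higher (11%; 17.8% in either direction): Mest at -3.20, Plagl1 at -2.32, Igf2 at -1.78 and Peg3 at -1.48. Without cells of other classes 6 were lower, Dlk1 at -1.76 and Grb10 at -1.10 among them, while Ndn stood at 0.12. The share of all genes was not computed without those cells, so this count has no background.

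Levels were also taken along finer steps of Myog and Ckm counts. The steps were set after values had been seen and order cells of 1 culture by marker counts, not by time. The Pax7 class was step 1, cells with 1 to 4 Myog UMIs step 2 (2522 cells), 5 to 19 step 3 (564) and at least 20 step 4 (1160). Cells with 2 to 4 Ckm UMIs formed step 5 (498), 5 to 9 step 6 (379), 10 to 29 step 7 (468) and at least 30 step 8 (190). Median UMIs per cell increased from 18729.5 at step 1 to 53621 at step 8, and the part of depth in placing cells was not tested. Free RNA alone would give a Myog UMI in 5.76% of cells at 5000 UMIs. The steps used unthinned counts, with a median of 19366 UMIs at step 2, where that share would be larger. Step 2 can therefore hold cells with no Myog of their own, and how many was not tested.

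Cdkn1c stood at 229 CPM at step 1 and 257 at step 2, then at 1114 at step 3 and 3498 at step 4, the highest. It was lower at each later step, at 2739, 2403, 1893 and 1048 CPM. Its maximum therefore lay in cells with much Myog and little Ckm, 15.3-fold over step 1. Mest held at 444, 428 and 470 CPM over steps 1 to 3, then stood at 272 at step 4, 94.2 at step 5 and 27.6 at step 8. Its range over the steps was 17.0-fold, and it was lower from the step at which Cdkn1c peaked. Plagl1 stood at 236, 189, 146 and 83.4 CPM at steps 1 to 4 and at 23.1 CPM at step 8.

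Dlk1 stood at 121 and 105 CPM at steps 1 and 2 and was higher at each later step, at 170, 264, 398, 502, 513 and 595 CPM. The intervals of steps 6 and 7 overlap (491 to 514 and 504 to 523), while step 8 lay above both. Ndn went from 39.1 to 104 CPM with overlapping intervals at steps 5, 6 and 7 (92.4, 89.5 and 88.7). Igf2 stood at 26.9 and 25.7 CPM at the first pair of steps and between 37.3 and 47.9 afterwards, with overlapping intervals from step 5 on. Peg3 had its maximum of 625 CPM at step 3 and its minimum of 417 at step 7, and Grb10 ran from 235 to 334 CPM. Averaging CPM cell by cell left the step with the highest level the same for 7 members and moved that of Igf2 from step 5 to step 7.

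**Figure D4:**
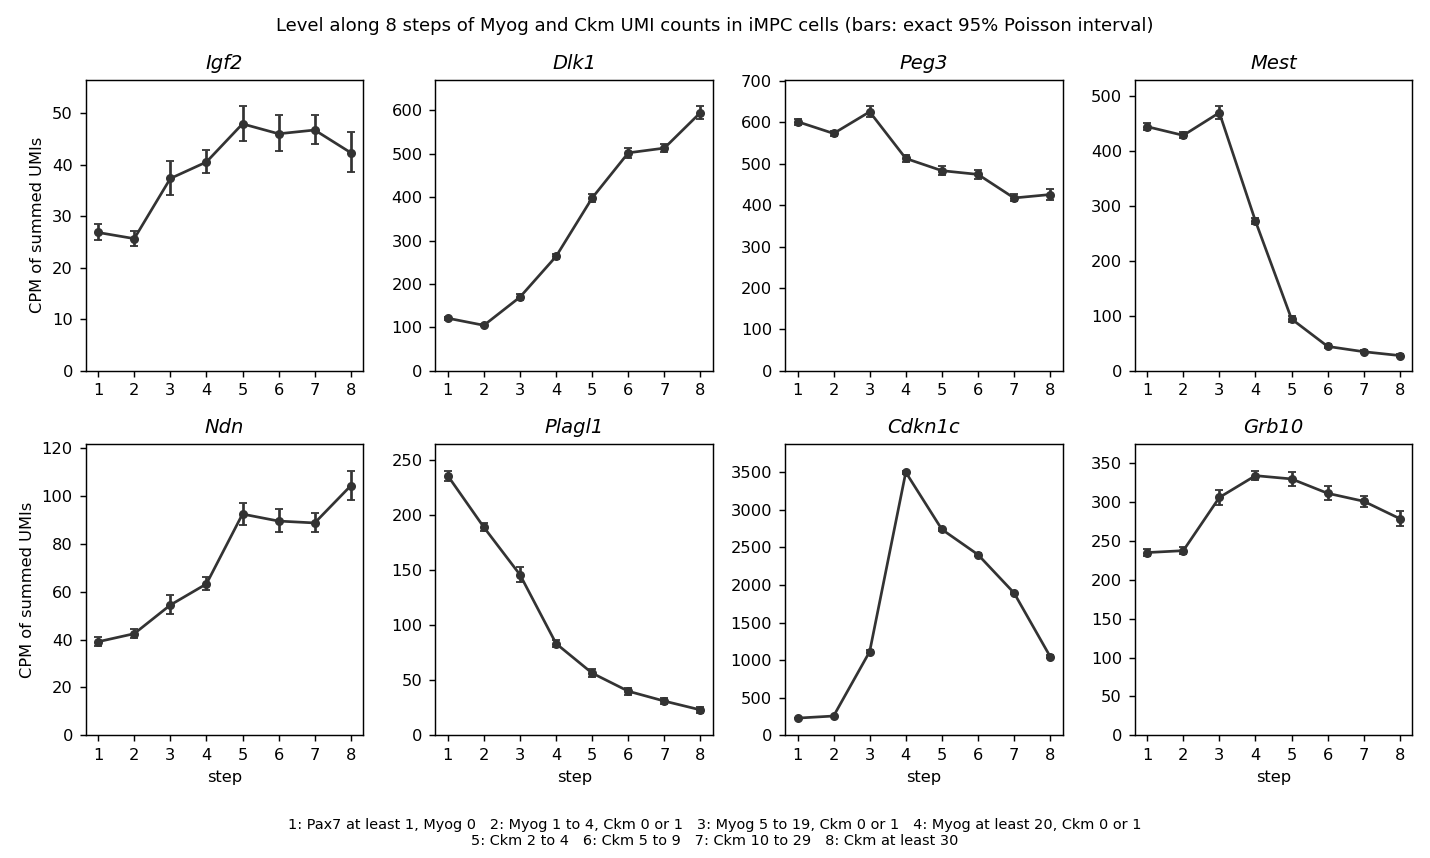
CPM of each member at 8 steps of Myog and Ckm UMI counts among iMPC cells, from Pax7-positive cells without Myog (step 1) to cells with at least 30 Ckm UMIs (step 8); bars are exact 95% Poisson intervals. Cdkn1c peaks at step 4 (3498 CPM) where Mest has dropped to 272 CPM, and Dlk1 reaches 595 CPM at step 8.

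Cycling cells, those with at least 1 UMI of Mki67 or Top2a at 5000 UMIs, made up 51.5% of the Pax7 class, 38.2% of the Myog class, 7.14% of the Ckm class, 16.1% of the Dcn class and 9.69% of MEF. Mest followed cycling within the classes. In the Pax7 class it stood at 570 CPM in 1122 cycling cells (551 to 591) and 274 in 1058 other cells (260 to 288), a log2 ratio of 1.06 (0.97 to 1.15). In the Myog class the values were 539 CPM in 659 cells and 237 in 1065, a log2 ratio of 1.19 (1.08 to 1.29). In the 74 cycling cells of the Ckm class it stood at 173 CPM against 24.7 in the rest, and in MEF at 52.7 against 38.1, a log2 ratio of 0.47 (0.21 to 0.72). The other cells can include cycling cells missed at this depth: without thinning, 59.1% of the Pax7 class had a Top2a UMI, against 46.4% at 5000 UMIs. What share of the course of Mest goes with cycling was not tested.

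Cdkn1c, an inhibitor of the cycle, was lower in cycling cells of the Myog class, at 2381 CPM (2328 to 2434) against 3590 (3540 to 3642), a log2 ratio of -0.59. In the Pax7 class the gene was higher in cycling cells, at 281 CPM against 236, a log2 ratio of 0.25 (0.14 to 0.36). Cycling cells of the Myog class thus held more Cdkn1c than either set of Pax7-class cells. In MEF the log2 ratio of Cdkn1c was -0.85 (-1.04 to -0.68). It was 0.78 (0.49 to 1.07) in the Dcn class, with 89 cycling cells. In the Ckm class it was 0.07 (-0.04 to 0.17). Cdkn1a, which encodes the related inhibitor p21 and is no member, was lower in cycling cells of MEF (-0.45), the Pax7 class (-0.44) and the Myog class (-0.56). In the Ckm class (-0.10) and the Dcn class (-0.09) its intervals included 0.

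Dlk1 was lower in cycling cells of the Myog class and higher in those of the Pax7 class, and Igf2 was lower in those of the Myog class. In the Myog class Dlk1 stood at 92.9 CPM in cycling and 249 in other cells, a log2 ratio of -1.42 (-1.61 to -1.24), and Igf2 at 27.3 and 53.3 CPM, or -0.97 (-1.32 to -0.62). In the Pax7 class Dlk1 was higher in cycling cells, at 144 against 101 CPM (0.51, 0.35 to 0.67), and Igf2 stood at 27.8 and 25.3 CPM with an interval that includes 0. Cycling cells of the Myog class thus had less Dlk1 than those of the Pax7 class. Plagl1 was higher in cycling cells of the Pax7 class (0.34), the Myog class (0.54) and MEF (0.52), and Peg3 by 0.19, 0.20 and 0.25. Grb10 stood at 0.33 in the Pax7 class and -0.10 in the Myog class, where its interval reaches 0.01.

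**Figure D5:**
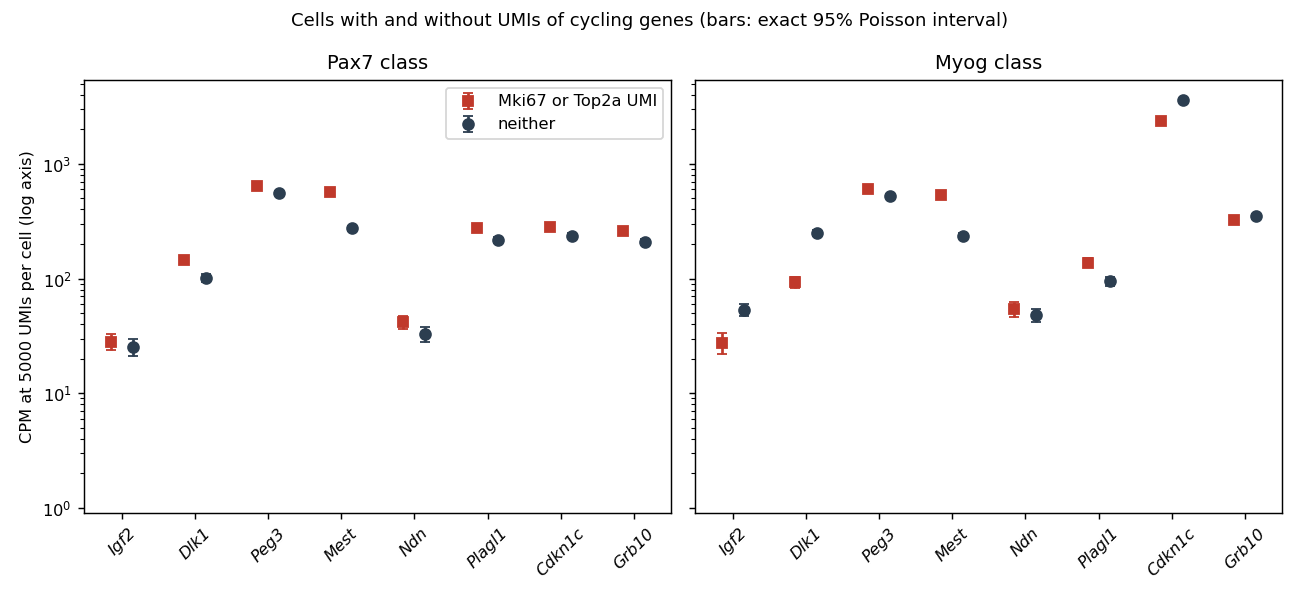
CPM (log axis, every cell at 5000 UMIs) of each member in cells with a UMI of Mki67 or Top2a (squares) and in the other cells (circles) of the Pax7 and Myog classes; bars are exact 95% Poisson intervals. Mest lies higher in cycling cells of both classes (570 against 274 and 539 against 237 CPM), and Dlk1 lower in those of the Myog class (92.9 against 249 CPM).

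Single cells showed weak association between the members. Over the 28 pairs, Pearson's r of log counts at 5000 UMIs had a median of 0.08 in the 9349 iMPC cells and ran from -0.05 (Ndn and Plagl1) to 0.36 (Mest and Plagl1). The cells share 1 library and the counts are sparse, so these are descriptions. Of the iMPC cells with Mest, 59.0% also had Plagl1, against 25.6% of those without. Within the Pax7 class alone the shares were 68.4% and 38.1% (r = 0.32), and Mest and Peg3 had r = 0.34. In the Myog class Dlk1 and Mest had r = -0.19: 47.2% of cells with Dlk1 had Mest, against 63.5% of those without. In the Pax7 class the same pair went the other way, with 80.1% against 52.8% (r = 0.28). In MEF no pair exceeded 0.13.

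The genes most like each member over the iMPC cells were ranked among 4833 genes found in at least 10% of them. For Cdkn1c they were Myog (r = 0.51), Mymk (0.42), the fusion protein myomaker, and Rbm24 (0.42), an RNA-binding protein of muscle. For Mest they were Nnat (0.47), Mgp (0.44) and Pclaf (0.43), a replication-associated protein. Dlk1 was nearest to Casq2 (0.33), Cav3 (0.32) and Mybpc1 (0.31), which encode proteins of the muscle calcium store, membrane and filament. Plagl1 was nearest to Mest (0.36), Mgp (0.35) and Ptma (0.28), and Peg3 to Mest (0.29), Des (0.25) and Ccnd3 (0.24). Grb10 was nearest to Ttn (0.21), Cdkn1c (0.19) and Neb (0.18). Igf2 (Mymk 0.14, Ttn 0.13, Neb 0.13) and Ndn (Tmsb10 0.15, Pgam2 0.12, Apobec2 0.11) resembled no gene closely. Myog is also the gene that defines the Myog class.

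A list of other genes reported as imprinted was also compared, and whether each is imprinted in these cells was not tested. Of 60 listed, 52 were in the files and 29 reached 10 CPM in iMPC or MEF: 12 were at least 2-fold higher in iMPC, 4 lower and 13 neither, with a median log2 ratio of 0.41 beside -0.17 for all genes, of which 14.8% were higher and 21.5% lower. The highest were Ddc at 6.36 (57.6 against 0.703 CPM), which encodes an amine-forming decarboxylase, Gatm at 5.96, an enzyme of creatine synthesis, Ppp1r9a at 5.33 and the retrotransposon-derived Peg10 at 4.37 (193 against 9.33 CPM). Of the 12 higher genes, only Nnat (38.2 CPM), Ago2 (75.8) and Slc38a4 (10.7) reached 10 CPM in MEF. The others were counted only through iMPC, so they could not count as lower. The lowest were Osbpl5 at -2.10, Impact at -1.92, Blcap at -1.56 and the tetraspanin Cd81 at -1.46. Osbpl5, at 7.68 CPM in iMPC, was counted only through MEF. Chosen after their values were seen, the neighbours of Peg3, Usp29 and Zim1, stood at 3.92 (15.2 against 0.999 CPM) and 3.32 (35.4 against 3.56 CPM). Nnat, the gene most like Mest, stood at 273 CPM in the Pax7 class, 227 in the Myog class and 34.0 in the Ckm class, a log2 ratio of -3.00 from first to last beside -3.62 for Mest. Between the Ckm and the Pax7 class 6 of 28 of these genes were higher, 5 lower and 17 neither (12.2% and 30.2% of all genes), with Peg10 at 1.06. Between the Myog and the Pax7 class 3 of 27 were higher and 2 lower, near the 7.02% and 11.5% of all genes.

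Genes of the IGF pathway, through which Igf2 and Grb10 act, were mixed. Of 23 listed, 16 reached 10 CPM in iMPC or MEF: 3 were at least 2-fold higher in iMPC, 5 lower and 8 neither, with a median of -0.02. Of all genes, 14.8% were higher and 21.5% lower, so the count of higher genes was near the background. The 3 higher were binding proteins that hold IGFs outside cells, Igfbp2 at 5.87 (201 against 3.43 CPM), Igfbp5 with 524 against 14.2 CPM and Igfbp3 at 3.29. The next, the docking protein Irs1, stood at 0.65. Igfbp2, below 10 CPM in MEF, was counted only through iMPC and could not count as lower. Among the lower genes were Grb14, the closest relative of Grb10 in the list, at -3.05, the IGFBP protease Pappa at -2.89, Igfbp6 at -2.47 and the protease Htra1 at -1.30. The receptors were nearer to each other: Igf1r stood at 189 against 133 CPM (0.51), Igf2r, which clears IGF2 and is itself imprinted, at 133 against 142 CPM (-0.09), and the log2 ratio of Insr was 0.05. Between the Ckm and the Pax7 class 0 of 16 were higher and 9 lower (12.2% and 30.2% of all genes), with Igf1r at -1.27 and Igfbp3 at -3.07. In the same comparison Igf2 stood at 0.76 and Grb10 at 0.35.

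The 6 other Cdk inhibitors had mixed courses. Between the Myog and the Pax7 class, Cdkn1a was higher at 1.16 (920 against 411 CPM), Cdkn2a (-1.06) and Cdkn2b (-1.53) were lower, and Cdkn1b stood at -0.69, Cdkn2c at -0.52 and Cdkn2d at -0.11, beside 3.62 for Cdkn1c. Cdkn1a went on from 920 CPM in the Myog class to 1295 in the Ckm class, where Cdkn1c stood lower, at 1863 after 2809 CPM. Against MEF, Cdkn1b (2.18) and Cdkn2d (1.61) were 2-fold higher in iMPC and Cdkn2b (-1.17) lower, with 3 of the 6 within 2-fold. Of all genes, 14.8% were higher and 21.5% lower in iMPC over MEF. Between the Myog and the Pax7 class the shares were 7.02% and 11.5%.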

How the data were processed

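The values deposited are raw counts of UMIs, by gene and by barcode, from 10x Genomics 3′ version 3 libraries, and the submitters' processing notes name Cell Ranger 4.0, Seurat 3.2.3 and GRCm38.p6; no normalisation of the deposited counts is stated. Each 3′ UMI counts 1 end of a molecule, so CPM does not scale with gene length. The iMPC matrix lists all barcodes, the MEF matrix 6113, and how these were selected is not given in the sources used here. The labels repeat the iMPC protocol text for MEF, whose own treatment label was used. Kept were iMPC cells of at least 8036 UMIs and cells of both libraries with at most 20% mitochondrial UMIs. No doublet caller was run; leaving out the 5% of cells with most UMIs, or cells of 2 or more classes, were alternatives. Dropped were 24 genes listed only for MEF (0.209% of its UMIs).

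UMIs were summed per group and divided by the group total. A gene passed at a 2-fold ratio if its higher side reached 10 CPM. With 1 library per group no test was possible, also because nothing separates cultures. Intervals are exact Poisson (CPM), exact conditional (ratios) and Clopper-Pearson binomial (shares). Free RNA came from 48846 iMPC barcodes holding 200 to 600 UMIs (median 430, 2.06% of a median cell). Intervals and ratios were tested on simulated data. Python 3.11.15, numpy 2.4.6, scipy 1.17.1 and pandas 2.3.3 were used.

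Members and lists were chosen with earlier results of these data known. Named from the imprinted and IGF lists were the 4 genes with the largest ratios in each direction between iMPC and MEF, and for each member the 3 genes of highest r; other genes were named after their values were seen. Comparisons of the Ckm with the Myog class, of both with MEF, the steps and the cycling split were added after seeing the data.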

Additional observations from a re-analysis of the deposited data

Results flagged for a closer look

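All 8 members were detected in iMPC barcodes that were not called cells, those of 200 to 600 UMIs, which otherwise served only to measure free RNA. A count of 0 there would allow 0.141 CPM. The levels were 64.6 CPM for Igf2, 231 for Dlk1, 251 for Peg3, 159 for Mest, 852 for Cdkn1c, 54.4 for Ndn, 63.9 for Plagl1 and 209 for Grb10. In the called iMPC cells the same genes stood at 33.6, 240.1, 518, 283, 1263, 59.0, 132 and 268 CPM. Igf2 was the only member with a higher level in these barcodes than in the cells. At the measured share of free RNA per cell, it would add 1.33 CPM of Igf2 and 17.6 CPM of Cdkn1c to a cell's level.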

How the results depend on the processing

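Each comparison was recomputed under 11 settings of scaling, total, depth, cell filters, class rules and free RNA, and the counts of members also with other CPM minimums. The comparisons share cells, and 17.8% to 49.1% of all genes passed 2-fold in them before any setting was changed. Of 72 member ratios, 41 passed 2-fold and 39 of these passed in all 11 settings. The 31 others stayed within the line in 20 cases. The 2 that did not always pass were Cdkn1c and Plagl1 in the Dcn class over MEF. The count of members 2-fold different in that comparison was 3, where 25.9% of all genes passed. The share of all genes was not computed for the other settings. The count became 5 with the total taken without mitochondrial and ribosomal protein genes, and 1 with cells thinned to 5000 UMIs. It was also 1 with cells of 2 or more classes left out, when the log2 ratio of Cdkn1c turned to -0.31. Cdkn1c in the Dcn over the Pax7 class, 0.65, stood at -0.96 there. Scaled by the median of genes well counted on both sides, Grb10 passed over MEF in the Myog (1.07) and Ckm class (1.31). Plagl1 passed over MEF in the Ckm class (1.16) under the same scaling. In the Dcn class over MEF, Dlk1 ran from -0.24 to 1.18 over the settings. Thinned to 5000 UMIs, Dlk1 in iMPC over MEF stood at 1.81 in place of 2.62. All 8 members were found in at least 10% of iMPC cells, and 6 at 2000 UMIs or when 2 UMIs were required. In the cycling split, 29 of 32 values stayed within their counting interval under alternatives chosen after seeing the data. The step levels moved more. Averaging CPM cell by cell took 36 of them out of their interval and left 28 inside. Without cells of the Dcn class, 14 moved out and 50 stayed inside. No paired analysis was possible because each group holds 1 library, which also left no replicate to leave out.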
